A study of Mus musculus with 20 samples.

Results

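The TREM and CD300 receptors were 10 genes, taken by symbol from the 23090 genes counted in each library. They were Trem1, Trem2, Trem3, Treml2 and Treml4 of the TREM family, Cd300a, Cd300lb, Cd300ld and Cd300lf of the CD300 family, and Tyrobp, which encodes the shared signalling adaptor DAP12. All 10 were found in the files and passed the filter on low counts in every comparison. The study sequenced poly-A RNA of myeloid cells sorted from tumours, in 20 libraries and 4 groups of 5. The groups were granulocytic myeloid-derived suppressor cells (gMDSC) from mice given CBPi (libraries 6 to 10), gMDSC from vehicle mice (1 to 5), monocytic cells (mMDSC) from mice given CBPi (6 to 10) and mMDSC from vehicle mice (1 to 5). CBPi is GNE-781, an inhibitor of the bromodomain, a reader of acetylated histones, in the co-activators CBP and EP300. It was given orally at 25 mg/kg in twice-daily doses for 7 days, and the vehicle was MCT. All mice were female SCID.beige animals aged 6 to 8 weeks, a strain without T cells, B cells and working NK cells. Each carried a subcutaneous tumour of human MDA.MB.231-X1.1 breast cancer cells or of mouse CT26 colon cancer cells. No label ties a library to a line, so the lines cannot be told apart here. Both populations were sorted as positive for CD45, CD11b and Ly6C and negative for F4/80. The gMDSC carried Ly6G and the mMDSC did not.

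TREM and CD300 receptors are membrane proteins of myeloid cells with an immunoglobulin-like domain outside the cell. Activating members hold an adaptor such as DAP12 or the Fc receptor gamma chain in the membrane, and the ITAM motif of the adaptor recruits the kinase SYK. Inhibitory members such as CD300A carry ITIM motifs in their own tails, which recruit the phosphatase SHP-1. In tumours TREM1 is known from neutrophils and monocytes, and TREM2 from macrophages that take up lipid.

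Library totals ranged from 12.37 to 26.64 M counts. Vehicle gMDSC 3 stood apart from its group, with correlations of log2 CPM of 0.88 to 0.906 with the other 4 libraries, against 0.942 to 0.971 among those 4. Levels are given in CPM, a gene's counts relative to the library total, scaled by TMM over all 20 libraries. The sort was F4/80-negative, yet macrophage genes were abundant in all 4 groups. The summed level of 10 macrophage markers, none of them at 0 in all libraries of a group, was 16000 to 31600 CPM in CBPi gMDSC and 33800 to 77300 CPM in vehicle gMDSC. It was 18800 to 23700 CPM in CBPi mMDSC and 22300 to 32000 CPM in vehicle mMDSC. The highest sum was that of vehicle gMDSC 3, where the lipid carrier Apoe, 1 of the 10 markers, was at 55700 CPM, while Adgre1, the gene of F4/80, was at 629 CPM, its lowest value among the vehicle gMDSC. The lowest sums were those of CBPi gMDSC 6 (16000 CPM) and 7 (18500 CPM). Ly6g was at 0.529 to 2.14 CPM in CBPi gMDSC, 0.438 to 9.20 CPM in vehicle gMDSC, 0 to 0.0392 CPM in CBPi mMDSC and 0 to 0.404 CPM in vehicle mMDSC. The neutrophil chemokine receptor Cxcr2 separated the sorted types, at 659 to 1070 CPM in CBPi gMDSC, 956 to 1870 CPM in vehicle gMDSC, 0.645 to 3.41 CPM in CBPi mMDSC and 0.233 to 2.72 CPM in vehicle mMDSC. In bulk libraries, fewer cells of a type and less RNA per cell cannot be told apart.

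The members lie in 2 gene clusters and at 1 further locus, in the coordinates of GRCm38. On chromosome 17 the order is Trem1 (GeneID 58217, 48232713 to 48246927), Trem3 (GeneID 58218, 48247677 to 48258848), Treml4 (GeneID 224840, 48264200 to 48275607), Treml2 (GeneID 328833, 48299390 to 48312534) and Trem2 (GeneID 83433, 48346401 to 48352276). On chromosome 11 it is Cd300a (GeneID 217303, 114889152 to 114901946), Cd300lb (GeneID 217304, 114922779 to 114934371), Cd300ld (GeneID 217305, 114982443 to 114989886) and Cd300lf (GeneID 246746, 115116214 to 115135372). Tyrobp (GeneID 22177) lies on chromosome 7, 30413782 to 30417582.

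Promoter windows of 250 bases before to 50 bases after an annotated start were found for 7 of the 10 members in RefSeq (GRCm38.p6). The windows of Cd300a and Cd300lf lie wholly within the gene spans given above. Their annotated starts are therefore inside the gene and not at its outer end. The starts used for Treml4 and Trem1 also lie inside the gene, but near its outer end, and their windows reach beyond it. The 5 shown are those of Treml4 and Cd300a, which CBPi lowered in both sorted types, of Cd300lf and Trem2, each past the test in 1 sorted type, and of Trem1, past it in neither. Capitals mark matches, on either strand, to the letters GAGGAA (PU.1 core), TGANTCA (AP-1) and TTGCNNAA (C/EBP). An NF-kB motif of 10 letters was also searched and is in none of these 5. The windows are 5′ to 3′ on the gene's strand: chr17:48264045-48264344 (+) for Treml4, chr11:114889791-114890090 (+) for Cd300a, chr11:115133943-115134242 (-) for Cd300lf, chr17:48346151-48346450 (+) for Trem2 and chr17:48232489-48232788 (+) for Trem1.
Treml4: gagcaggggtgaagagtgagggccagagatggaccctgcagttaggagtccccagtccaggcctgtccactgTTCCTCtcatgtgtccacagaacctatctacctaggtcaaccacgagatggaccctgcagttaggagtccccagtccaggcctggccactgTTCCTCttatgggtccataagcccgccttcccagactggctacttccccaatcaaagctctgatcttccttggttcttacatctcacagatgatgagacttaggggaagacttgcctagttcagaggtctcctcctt
Cd300a: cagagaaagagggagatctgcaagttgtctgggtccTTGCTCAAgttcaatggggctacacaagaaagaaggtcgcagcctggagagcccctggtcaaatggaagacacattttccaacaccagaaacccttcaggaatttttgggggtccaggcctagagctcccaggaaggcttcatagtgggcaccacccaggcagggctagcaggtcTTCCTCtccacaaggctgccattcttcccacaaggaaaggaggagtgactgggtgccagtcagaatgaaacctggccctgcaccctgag
Cd300lf: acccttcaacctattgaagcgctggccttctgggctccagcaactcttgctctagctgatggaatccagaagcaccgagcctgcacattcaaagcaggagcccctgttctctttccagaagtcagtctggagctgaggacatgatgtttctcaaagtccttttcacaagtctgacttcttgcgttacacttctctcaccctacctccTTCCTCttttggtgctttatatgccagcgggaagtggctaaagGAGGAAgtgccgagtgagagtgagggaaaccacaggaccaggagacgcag
Trem2: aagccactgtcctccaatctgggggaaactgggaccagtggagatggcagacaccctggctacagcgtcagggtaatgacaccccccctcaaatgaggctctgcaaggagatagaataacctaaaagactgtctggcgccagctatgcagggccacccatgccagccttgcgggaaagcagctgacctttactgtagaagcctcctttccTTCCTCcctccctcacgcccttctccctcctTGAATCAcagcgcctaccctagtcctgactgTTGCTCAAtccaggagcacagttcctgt
Trem1: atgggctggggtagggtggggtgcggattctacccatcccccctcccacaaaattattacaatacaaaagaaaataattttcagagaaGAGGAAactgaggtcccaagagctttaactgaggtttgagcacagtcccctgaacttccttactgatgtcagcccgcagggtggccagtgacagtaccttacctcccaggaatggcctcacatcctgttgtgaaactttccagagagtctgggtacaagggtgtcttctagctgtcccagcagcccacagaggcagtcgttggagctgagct
The Treml4 window held a 40-base stretch, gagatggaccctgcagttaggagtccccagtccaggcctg, at 2 places, and each copy was followed by a GAGGAA match on the minus strand. GAGGAA was in 6 of the 7 member windows, against 28.1% of all 32544 windows of this length. TTGCNNAA was in 2 of 7 (Cd300a and Trem2), against 10.8% of all windows, TGANTCA in 1 of 7 (Trem2), against 7.79%, and the NF-kB motif in 2 of 7 (Cd300lb and Cd300ld), against 5.56%. The AP-1 letters of Trem2 read as a match on both strands, and in Cd300ld the NF-kB and PU.1 letters overlap. The motifs were chosen after the members' values were known, and a match describes letters and no binding.

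**Figure D1:**
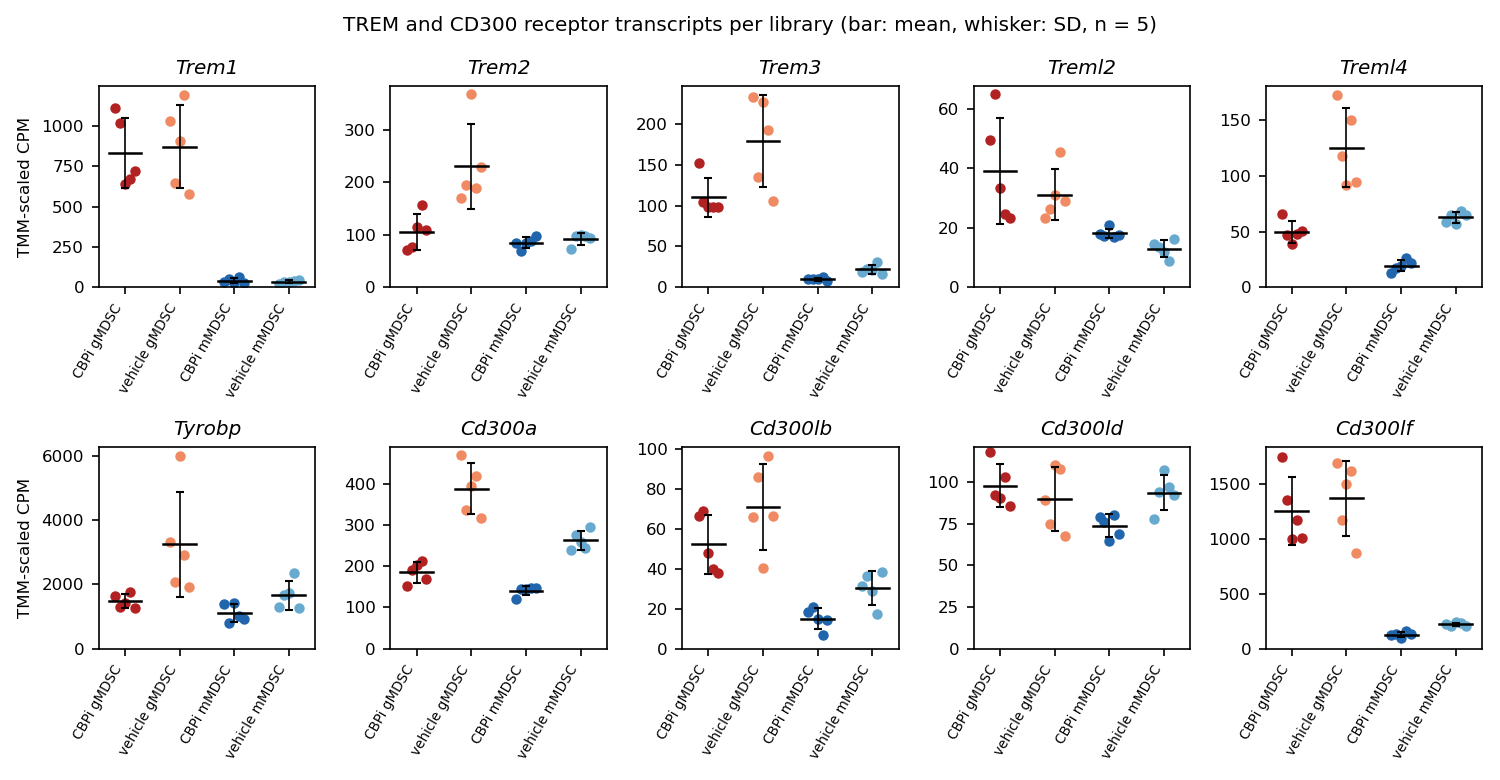
Level of each receptor gene in every library, in CPM scaled by TMM over the 20 libraries, with 1 panel a gene and its own axis from 0. Points are libraries, the bar is the group mean and the whisker the SD (n = 5). Trem1, Trem3 and Cd300lf stand far higher in gMDSC than in mMDSC, and Treml4 and Cd300a lower with CBPi than with vehicle in both sorted types without overlap.

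Levels of different genes were set side by side only per kb of the gene width in the files. Tyrobp was the highest of the 10 in every group, at 4300 ± 632 CPM per kb in CBPi gMDSC, 9400 ± 4770 in vehicle gMDSC, 3220 ± 823 in CBPi mMDSC and 4810 ± 1300 in vehicle mMDSC (SD, n = 5 each), and its libraries did not overlap those of the next member. In gMDSC the next were Cd300lf (1240 ± 308 CPM per kb with CBPi, 1350 ± 338 with vehicle) and Trem1 (1180 ± 306 with CBPi, 1240 ± 367 with vehicle), whose ranges overlapped each other and stood clear of the fourth member. In mMDSC the order below Tyrobp began with the inhibitory receptors Cd300a (134 ± 11 CPM per kb with CBPi, 251 ± 22.2 with vehicle) and Cd300lf (127 ± 19.8 with CBPi, 220 ± 14.3 with vehicle), which again overlapped. With vehicle both stood clear of the next member. With CBPi their ranges also overlapped those of Trem2 (113 ± 14.1) and Cd300ld (111 ± 10.3), so the order there is not resolved. The lowest member was Treml2 in CBPi gMDSC (39.6 ± 18 CPM per kb), vehicle gMDSC (31.4 ± 8.69) and vehicle mMDSC (13.1 ± 2.80). In CBPi mMDSC it was Trem3 (17.9 ± 3.29), whose range overlapped that of Treml2 (18.2 ± 1.68).

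The cell types were compared to describe where the receptors are used without and with the inhibitor. In vehicle mice 9 of the 10 genes were higher in gMDSC than in mMDSC and 0 were lower, with Cd300ld as the exception. In that comparison 13.6% of the 11576 genes tested were higher, 8.08% were lower and 21.7% passed in either direction, at an adjusted p under 0.05 (edgeR's quasi-likelihood test, Benjamini-Hochberg over all genes tested). With 5 libraries against 5, the groups did not overlap for 8 members, all higher, against 20.2% of all genes. Under CBPi 9 of 10 were again higher and 0 lower, with Trem2 as the exception, against 20.1% higher, 19.1% lower and 39.2% in either direction of 11895 genes. There, too, 8 members did not overlap, against 29.9% of all genes. DESeq2 and limma-voom called the same 9 members higher and 0 lower in each comparison, and at an unadjusted p under 0.05 edgeR had 0 lower. Under CBPi edgeR called 8 members with all 20 libraries in 1 fit, and 8 with no filter on low counts. Other CD300 genes did not share this direction, and no other TREM gene listed was tested. Of 12 other TREM and CD300 genes listed, 6 were tested in vehicle mice, with 0 higher and 2 lower in gMDSC (median log2 fold change -0.26). Under CBPi 5 were tested, with 0 higher and 1 lower (median -0.03). The Trem cluster's neighbours 9830107B12Rik, A530064D06Rik and B430306N03Rik were higher in gMDSC, by 6.07, 1.3 and 1.23 in vehicle mice (adjusted p = 0.0012, 0.00128 and 0.000142). Under CBPi they were higher by 6.34, 1.11 and 1.37 (adjusted p = 0.000168, 0.000359 and 0.000555). No tested neighbour of that cluster was lower.

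Trem1, the activating receptor that amplifies inflammatory responses of neutrophils and monocytes, differed most. It was at 1110, 1020, 639, 674 and 720 CPM in CBPi gMDSC 6 to 10, and at 32.1, 49.6, 27.4, 59.8 and 28.4 CPM in CBPi mMDSC 6 to 10. Vehicle gMDSC 1 to 5 had 1030, 647, 907, 1190 and 577 CPM, against 19.0, 29.5, 29.6, 40.4 and 42.2 CPM in vehicle mMDSC 1 to 5. No mMDSC library came near the lowest gMDSC library. The log2 fold change of gMDSC over mMDSC was 4.45 ± 0.27 (SE) under CBPi (adjusted p = 8.04e-08) and 4.76 ± 0.28 in vehicle mice (adjusted p = 2.14e-07), which is 21.83-fold and 27.19-fold. The genes whose 4 group means were most like those of Trem1, by the root-mean-square difference of centred log2 CPM, were Padi4 (0.111) and Tnfrsf23 (0.163).

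Trem3, a DAP12-paired activating receptor next to Trem1 that is a working gene in mice, had the second largest difference in both. Levels were 153, 105, 98.1, 98.0 and 98.3 CPM in CBPi gMDSC 6 to 10, against 10.2, 9.62, 10.3, 12.2 and 7.14 CPM in CBPi mMDSC 6 to 10. In vehicle mice they were 234, 135, 227, 193 and 106 CPM in gMDSC 1 to 5 and 18.7, 22.4, 20.9, 30.9 and 16.1 CPM in mMDSC 1 to 5. The groups were separate in both settings, with log2 fold changes of 3.53 ± 0.18 (SE) under CBPi (adjusted p = 2.28e-08) and 3.04 ± 0.26 in vehicle mice (adjusted p = 3.39e-06). The genes most like Trem3 over the 4 groups were Cyp4f18 (0.104) and C5ar2 (0.108).

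Cd300lf, an inhibitory receptor with ITIM motifs that binds lipids such as ceramide, was the most abundant CD300 member of gMDSC. CBPi gMDSC 6 to 10 had 1750, 1350, 1000, 1170 and 1010 CPM, and CBPi mMDSC 6 to 10 had 123, 132, 100, 156 and 131 CPM. Vehicle gMDSC 1 to 5 had 1690, 1170, 1500, 1620 and 874 CPM, against 226, 208, 239, 235 and 209 CPM in vehicle mMDSC 1 to 5. Every gMDSC library lay above every mMDSC library, by 3.34 ± 0.18 (SE, log2) under CBPi (adjusted p = 3.36e-08) and 2.63 ± 0.18 in vehicle mice (adjusted p = 5.87e-07). Its nearest genes by group means were Id1 (0.0881) and Tnfsf14 (0.0933). Of Cd300lf's 50-base words, 5.22% also occur in transcripts of other TREM or CD300 genes, as do 3.89% of Cd300ld's and 1.96% of Cd300a's, so a small share of their reads may be shared. The other 7 members had 0.

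Differences of the remaining members between the cell types were smaller. The DAP12-paired Cd300lb was higher in gMDSC by 1.85 ± 0.27 (log2, SE) under CBPi (adjusted p = 0.000167) and by 1.25 ± 0.26 in vehicle mice (adjusted p = 0.0041). Treml4, a receptor for dead cells on mouse monocytes and macrophages, was higher by 1.44 ± 0.20 (adjusted p = 9.37e-05) and 1.01 ± 0.18 (adjusted p = 0.00156) in those settings. Treml2, a TREM-like receptor of lymphoid and myeloid cells, was higher by 1.17 ± 0.26 (adjusted p = 0.00293) and 1.28 ± 0.24 (adjusted p = 0.00178). The inhibitory Cd300a was higher by 0.45 ± 0.12 (adjusted p = 0.0117) and 0.57 ± 0.13 (adjusted p = 0.00797). These 4 genes separated the cell types without overlap in both settings.

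Trem2, Cd300ld and Tyrobp were not called, or overlapped between the cell types, in at least 1 setting, and the test of the difference between settings called none of the 3 (adjusted p = 0.15, 0.376 and 0.606, edgeR's quasi-likelihood test). Trem2, the lipid-binding DAP12 receptor of macrophages, was higher in vehicle gMDSC than in vehicle mMDSC by 1.33 ± 0.21 (SE, adjusted p = 0.00059). Under CBPi its difference was 0.37 ± 0.20 (adjusted p = 0.161), and without CBPi gMDSC 6 and 7 together it was 0.63 (adjusted p = 0.012). Those libraries held the lowest Trem2 of their group, so leaving them out had to raise the difference. Cd300ld, an activating receptor that works with the Fc receptor gamma chain, was at 0.46 ± 0.12 under CBPi (adjusted p = 0.00933, no overlap) and at -0.04 ± 0.17 in vehicle mice (adjusted p = 0.889). Tyrobp was higher by 0.47 ± 0.17 under CBPi (adjusted p = 0.0421) and by 0.97 ± 0.30 in vehicle mice (adjusted p = 0.034), with overlapping groups in both. Each Tyrobp call ended when single libraries were left out (6 of 10 under CBPi, adjusted p up to 0.105, and 7 of 10 in vehicle mice, up to 0.0822). The Tyrobp call under CBPi also ended in edgeR with all 20 libraries in 1 fit (0.42, adjusted p = 0.235) and with no filter on low counts (0.46, adjusted p = 0.0508). Without vehicle gMDSC 3 the vehicle value was 0.63 (adjusted p = 0.0502). Summed neutrophil markers were far higher in gMDSC in both settings, unlike Trem2 and Cd300ld. They were at 6960 to 13300 CPM in CBPi gMDSC and 202 to 326 CPM in CBPi mMDSC, and at 8630 to 34600 CPM in vehicle gMDSC and 339 to 400 CPM in vehicle mMDSC. Of 9 neutrophil markers tested, 7 were higher in gMDSC under CBPi and 5 in vehicle mice. Summed macrophage markers, given above, overlapped between the cell types under CBPi and were higher in gMDSC without overlap in vehicle mice. By gene, 3 of 10 macrophage markers were higher and 2 lower in gMDSC under CBPi, and 4 higher and 2 lower in vehicle mice. The part of these markers in the receptors' values was not tested.

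**Figure D2:**
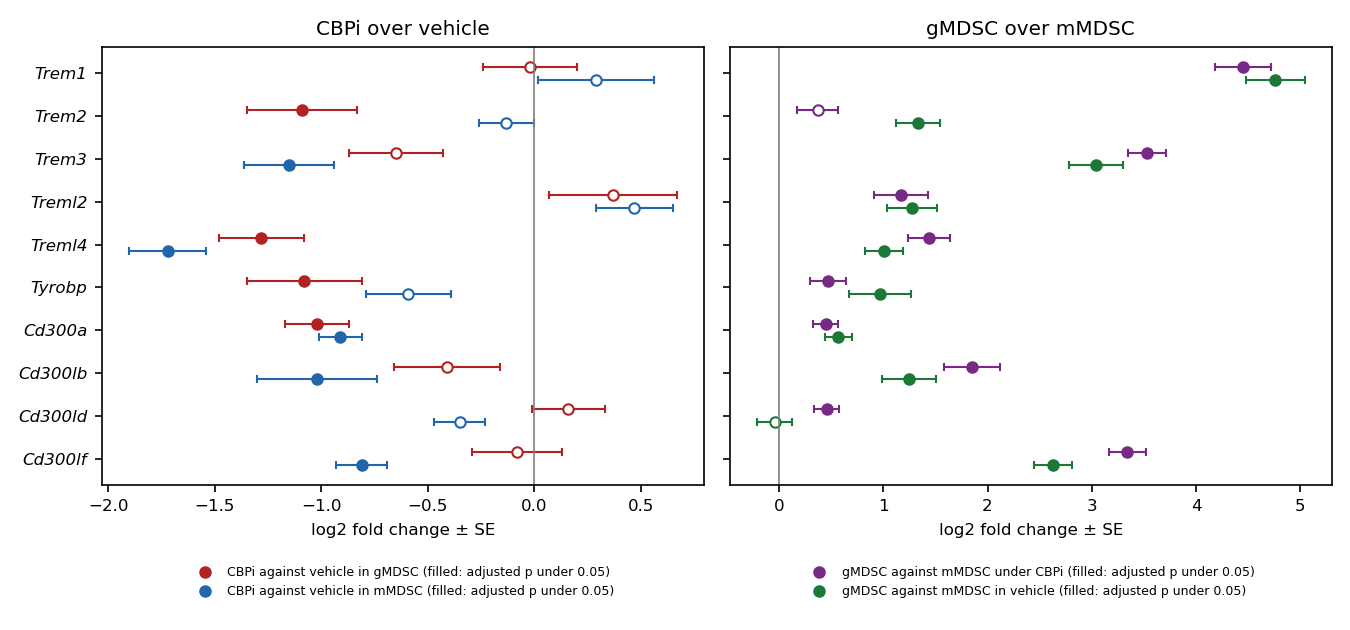
Log2 fold change of each receptor gene with its SE (whiskers), CBPi over vehicle on the left and gMDSC over mMDSC on the right. Filled points had an adjusted p under 0.05. No filled point lies right of 0 for CBPi, and none lies left of 0 for the cell types.

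CBPi was compared with vehicle within mMDSC to describe how blocking these bromodomains changes the receptors of the monocytic cells. Treml4, Trem3, Cd300lb, Cd300a and Cd300lf were lower with CBPi, which is 5 of the 10, and 0 were higher. Of the 11912 genes tested 5.54% were lower, 3.02% were higher and 8.56% passed in either direction. The median log2 fold change was -0.70 over the members and 0.01 over all genes tested. At an unadjusted p under 0.05 edgeR had 7 members lower and 1 higher (Treml2), DESeq2 called 7 lower and 0 higher, and limma-voom 5 lower and 0 higher. The groups did not overlap for 5 members, 4 lower and 1 higher, against 9.76% of all genes in either direction. Both activating and inhibitory receptors were among those that fell.

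Treml4 had the largest change. CBPi mMDSC 6 to 10 had 12.3, 17.6, 18.6, 25.8 and 21.3 CPM, against 58.9, 64.6, 56.5, 68.6 and 64.9 CPM in vehicle mMDSC 1 to 5. The highest CBPi library was under the lowest vehicle library, and the log2 fold change was -1.72 ± 0.18 (SE, adjusted p = 9.48e-05), 3.30-fold lower with CBPi. It lay between -1.85 and -1.60 when each library was left out in turn. Over the 4 groups the genes most like Treml4 were Lilra5 (0.0678) and C130050O18Rik (0.0727).

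The neighbouring Trem3, whose libraries are listed above, fell without overlap to 9.89 ± 1.81 CPM in CBPi mMDSC, against 21.8 ± 5.60 CPM in vehicle mMDSC (SD, n = 5 each, log2 fold change -1.15 ± 0.21 (SE), adjusted p = 0.00407). Summed neutrophil markers were at 202 to 326 CPM in CBPi mMDSC and 339 to 400 CPM in vehicle mMDSC, with 1 of 8 tested lower, and their part in this fall was not tested.

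Among the CD300 genes Cd300a, an inhibitory receptor for phosphatidylserine and phosphatidylethanolamine, changed with the smallest error. It was at 121, 144, 144, 148 and 148 CPM in CBPi mMDSC 6 to 10 and at 240, 277, 258, 245 and 296 CPM in vehicle mMDSC 1 to 5. The groups were far apart, and the log2 fold change was -0.91 ± 0.10 (SE, adjusted p = 0.000186), 1.88-fold lower with CBPi. Cd300lf, given above, also separated the groups, by -0.81 ± 0.12 (adjusted p = 0.00149). Cd300lb, a DAP12-paired receptor for phosphatidylserine, was at 18.2, 20.9, 15, 6.88 and 14.1 CPM in CBPi mMDSC 6 to 10, against 31.3, 36.3, 28.7, 17.2 and 38.2 CPM in vehicle mMDSC 1 to 5. Vehicle mMDSC 4 lay within the range of the CBPi libraries. The Cd300lb value of -1.02 ± 0.28 (adjusted p = 0.0422) lost its call without any of 8 of the 10 libraries (adjusted p up to 0.0979), which were all but CBPi mMDSC 7 and vehicle mMDSC 4.

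The other members did not pass in mMDSC. Tyrobp was at 1390, 789, 1420, 1010 and 934 CPM in CBPi mMDSC 6 to 10 and at 1280, 1670, 1730, 2360 and 1250 CPM in vehicle mMDSC 1 to 5 (-0.59 ± 0.20 (SE), adjusted p = 0.089). The groups overlapped, and DESeq2 gave Tyrobp an adjusted p of 0.0446. Cd300ld was at -0.35 ± 0.12 (adjusted p = 0.084, and 0.0268 by DESeq2). Treml2 was at 0.47 ± 0.18 (adjusted p = 0.133), although its 17 to 21.0 CPM in CBPi mMDSC lay above the 8.90 to 16.2 CPM of vehicle mMDSC without overlap. Trem1 was at 0.29 ± 0.27 (adjusted p = 0.579) and Trem2 at -0.13 ± 0.13 (adjusted p = 0.581). Trem2 was at 68.8 to 98.0 CPM in CBPi mMDSC and 72.4 to 100 CPM in vehicle mMDSC, ranges that nearly coincide. Macrophage markers were lower for 4 and higher for 1 of 10 in the same comparison, and monocyte markers lower for 3 and higher for 1 of 8. Summed dendritic cell markers were at 329 to 448 CPM in CBPi mMDSC and 471 to 524 CPM in vehicle mMDSC, and platelet and erythroid markers at 83.6 to 267 CPM in CBPi mMDSC and 25.8 to 53.6 CPM in vehicle mMDSC. By gene, of 7 dendritic cell markers tested 0 were higher and 1 lower, with a median log2 fold change of 0.3. The part of these markers in the receptors' values was not tested.

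Within gMDSC the comparison asked the same of the granulocytic cells. Treml4, Trem2, Tyrobp and Cd300a were lower with CBPi, 4 of 10, and 0 were higher. Of 11694 genes tested 5.52% were lower, 4.18% were higher and 9.71% passed in either direction. The median log2 fold change was -0.53 over the members and 0 over all genes. The 4 called members were also those without overlap between the groups, against 12.2% of all genes. At an unadjusted p under 0.05 edgeR had 5 lower and 0 higher, and DESeq2 and limma-voom each called 4 lower and 0 higher. Without CBPi gMDSC 6, or without CBPi gMDSC 7, 2 members were called. Without vehicle gMDSC 3 the same 4 were called, and without these 3 libraries together the 3 called were Treml4, Cd300a and Cd300lb. These 3 libraries were chosen after seeing the data, and each held the highest or lowest value of its group for some members. Leaving them out therefore moved such members in a direction known beforehand.

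Treml4 fell again, to 66.0, 46.7, 39.2, 47.7 and 50.2 CPM in CBPi gMDSC 6 to 10, against 173, 118, 92.2, 150 and 94.2 CPM in vehicle gMDSC 1 to 5. Its log2 fold change was -1.28 ± 0.20 (SE, adjusted p = 0.00232), and without the 3 libraries that stood apart it was -1.50 (adjusted p = 0.00326). Cd300a was at 151, 190, 204, 213 and 168 CPM in CBPi gMDSC 6 to 10 and at 471, 336, 396, 420 and 318 CPM in vehicle gMDSC 1 to 5. No CBPi library reached a vehicle library, with a log2 fold change of -1.02 ± 0.15 (adjusted p = 0.00157), or -0.94 without the 3 libraries (adjusted p = 0.00992). The genes most like Cd300a over the 4 groups were Lrrc25 (0.0282) and Ptpn6 (0.0599).

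Trem2 was at 71.4, 75.6, 115, 156 and 108 CPM in CBPi gMDSC 6 to 10, against 169, 194, 368, 189 and 229 CPM in vehicle gMDSC 1 to 5. The groups did not overlap, but the highest CBPi library and the lowest vehicle library were close, and vehicle gMDSC 3 stood far above the rest. The log2 fold change was -1.09 ± 0.26 (SE, adjusted p = 0.0204). It was -0.86 without vehicle gMDSC 3 (adjusted p = 0.0265), the call ended without CBPi gMDSC 6 (adjusted p = 0.053) or 7 (adjusted p = 0.0622), and without all 3 the value was -0.59 (adjusted p = 0.08). CBPi gMDSC 6 and 7 held the lowest Trem2 of their group and vehicle gMDSC 3 the highest of its group. Leaving them out had to shrink the difference, so these values do not test it. Fam214a (0.0635) and Asf1b (0.0788) were the genes most like Trem2 over the 4 groups.

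Tyrobp was at 1650, 1310, 1420, 1770 and 1270 CPM in CBPi gMDSC 6 to 10, against 3320, 2070, 6000, 2910 and 1930 CPM in vehicle gMDSC 1 to 5. All CBPi libraries were below all vehicle libraries, by a log2 fold change of -1.08 ± 0.27 (SE, adjusted p = 0.0261). Without vehicle gMDSC 3 it was -0.75 (adjusted p = 0.0194), and the call ended without CBPi gMDSC 6, 7, 8 or 10 or vehicle gMDSC 1 (adjusted p up to 0.0739). Without the 3 libraries that stood apart it was -0.73 (adjusted p = 0.0642).

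The macrophage markers summed in each library moved with Trem2. The 2 CBPi gMDSC libraries with the lowest sums, 16000 and 18500 CPM in libraries 6 and 7, had the lowest Trem2 of that group, and vehicle gMDSC 3, with 77300 CPM, had the highest Trem2 and Tyrobp. The other CBPi gMDSC had sums of 27300 to 31600 CPM and the other vehicle gMDSC 33800 to 48200 CPM, so the groups did not overlap in this sum either. Apoe was the larger part of the sum in each of the 10 gMDSC libraries, and alone it was at 9450 to 19000 CPM in CBPi gMDSC and 20600 to 55700 CPM in vehicle gMDSC. Other macrophage genes overlapped, with C1qa at 1720 to 3380 CPM in CBPi gMDSC and 2990 to 5610 CPM in vehicle gMDSC, and Adgre1 at 583 to 959 CPM in CBPi gMDSC and 629 to 1520 CPM in vehicle gMDSC. The macrophage receptor gene Csf1r was at its lowest among vehicle gMDSC, 1230 CPM, in library 3. By gene, 2 of the 10 macrophage markers were lower with CBPi in gMDSC and 0 higher. The part of these cells' RNA in the Trem2 and Tyrobp values was not tested.

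**Figure D3:**
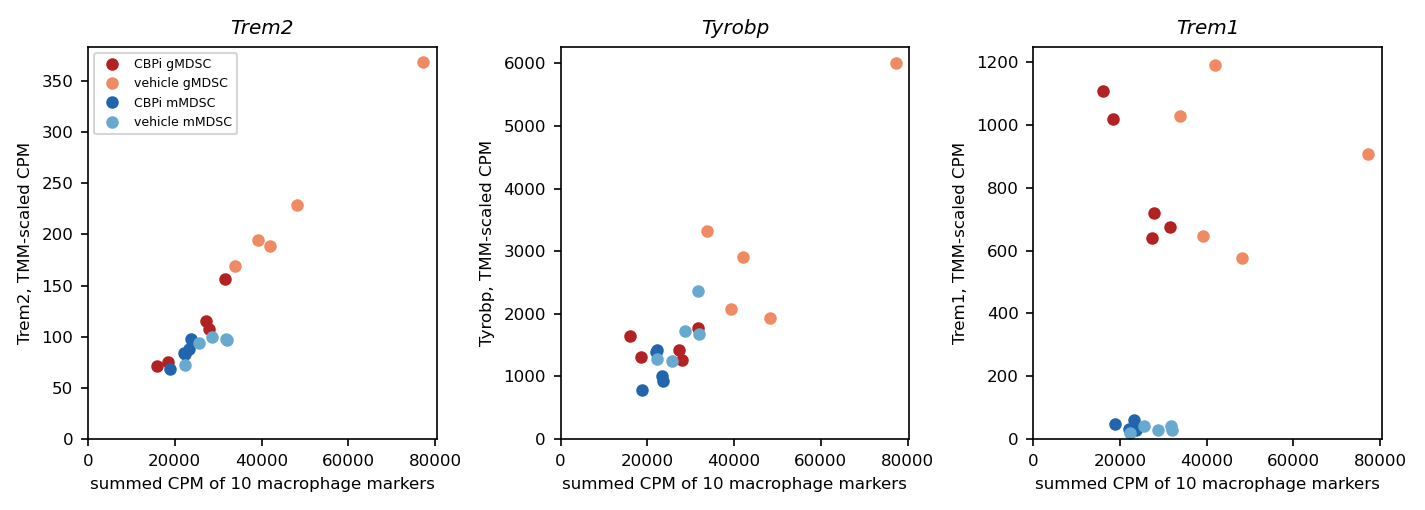
Levels of Trem2, Tyrobp and Trem1 (vertical axes, TMM-scaled CPM) against the summed CPM of 10 macrophage markers (horizontal axis) in the 20 libraries. Trem2 is highest, at 368 CPM, in vehicle gMDSC 3, the library with the highest sum of 77300 CPM, the larger part of it Apoe. Trem1 separates gMDSC from mMDSC at any sum.

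Other members of gMDSC did not pass. Trem3 was at -0.65 ± 0.22 (SE, adjusted p = 0.0814), with 4 of 5 CBPi libraries below every vehicle library, and it passed without vehicle gMDSC 5 (adjusted p = 0.0303) and with all 20 libraries in 1 fit (adjusted p = 0.0314). Cd300lb was at -0.41 ± 0.25 (adjusted p = 0.336), and at -0.87 without the 3 libraries that stood apart (adjusted p = 0.0257). Of those, CBPi gMDSC 6 and 7 held the highest Cd300lb of their group and vehicle gMDSC 3 the lowest of its group. Leaving them out had to widen the difference. Trem1 was at -0.02 ± 0.22 (adjusted p = 0.966), Cd300lf at -0.08 ± 0.21 (adjusted p = 0.84), Cd300ld at 0.16 ± 0.17 (adjusted p = 0.587) and Treml2 at 0.37 ± 0.30 (adjusted p = 0.466). Treml2 was highest in CBPi gMDSC 6 and 7, at 49.6 and 65.0 CPM, against 23.4 to 33.3 CPM in the other CBPi gMDSC and 23.4 to 45.6 CPM in vehicle gMDSC. Neutrophil markers were lower for 4 and higher for 0 of 10 with CBPi in gMDSC, at summed levels of 6960 to 13300 CPM in CBPi gMDSC and 8630 to 34600 CPM in vehicle gMDSC. Some summed markers of other cells were lower without overlap, at 168 to 281 CPM in CBPi gMDSC and 284 to 354 CPM in vehicle gMDSC for dendritic cells. They were at 2.93 to 8.78 and 16.1 to 54.9 CPM in these groups for lymphocytes and NK cells, and 6.25 to 11.6 and 23.7 to 55.3 CPM for epithelial cells. By gene, of 6 dendritic cell markers tested 1 was higher and 1 lower, with a median log2 fold change of 0.89. Stromal and endothelial sums overlapped, at 153 to 408 CPM in CBPi gMDSC and 142 to 474 CPM in vehicle gMDSC. Platelet and erythroid sums overlapped as well, at 50.2 to 67.8 and 28.2 to 82.8 CPM. Of 8 monocyte markers 2 were higher and 2 lower. The part of all these markers in the receptors' values was not tested.

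The responses of the cell types were compared in 1 fit over all 20 libraries, since calls in mMDSC and not in gMDSC do not show that the responses differ. Of the 10 members 0 were called, against 0.725% of 12688 genes (0.497% with a positive and 0.229% with a negative difference), and DESeq2 and limma-voom also called 0. At an unadjusted p under 0.05 edgeR had 3. These were Trem2 (gMDSC response minus mMDSC response -1.0 ± 0.30 (SE, log2), adjusted p = 0.15), Cd300lf (0.67 ± 0.25, adjusted p = 0.281) and Cd300ld (0.47 ± 0.20, adjusted p = 0.376). The difference of Treml4 was 0.39 ± 0.28 (adjusted p = 0.649) and that of Cd300a -0.17 ± 0.18 (adjusted p = 0.788). A further CD300 gene, Cd300e, an activating receptor of monocytes, did differ (1.10 ± 0.25, adjusted p = 0.0437), with 19.4 ± 2.95 CPM in CBPi gMDSC against 14.2 ± 3.28 CPM in vehicle gMDSC, and 23.7 ± 3.17 CPM in CBPi mMDSC against 36.9 ± 4.81 CPM in vehicle mMDSC.

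Neighbours in and beside the clusters did not share the members' direction with CBPi throughout. Beside the Trem cluster A530064D06Rik, upstream of Trem1, rose with CBPi in mMDSC (0.84, adjusted p = 0.0101), while Treml4 and Trem3 fell. Within the cluster B430306N03Rik, between Treml2 and Trem2, did not pass, at 0.27 in mMDSC (adjusted p = 0.502) and 0.42 in gMDSC (adjusted p = 0.211). In the Cd300 cluster Cd300c2 fell with CBPi in gMDSC (-0.85, adjusted p = 0.0214) and in mMDSC (-0.71, adjusted p = 0.0145). Cd300e fell in mMDSC (-0.65, adjusted p = 0.0129) and was at 0.49 in gMDSC (adjusted p = 0.192). Slc9a3r1, a scaffold gene just beyond Cd300lf, rose in mMDSC (0.45, adjusted p = 0.0111). Cd300lf lies within the annotated span of Rab37, and the strand setting of the counting is not given in the sources used here, but Rab37 had 0.661 to 5.32 CPM as group means against 129 to 1370 CPM for Cd300lf.

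**Figure D4:**
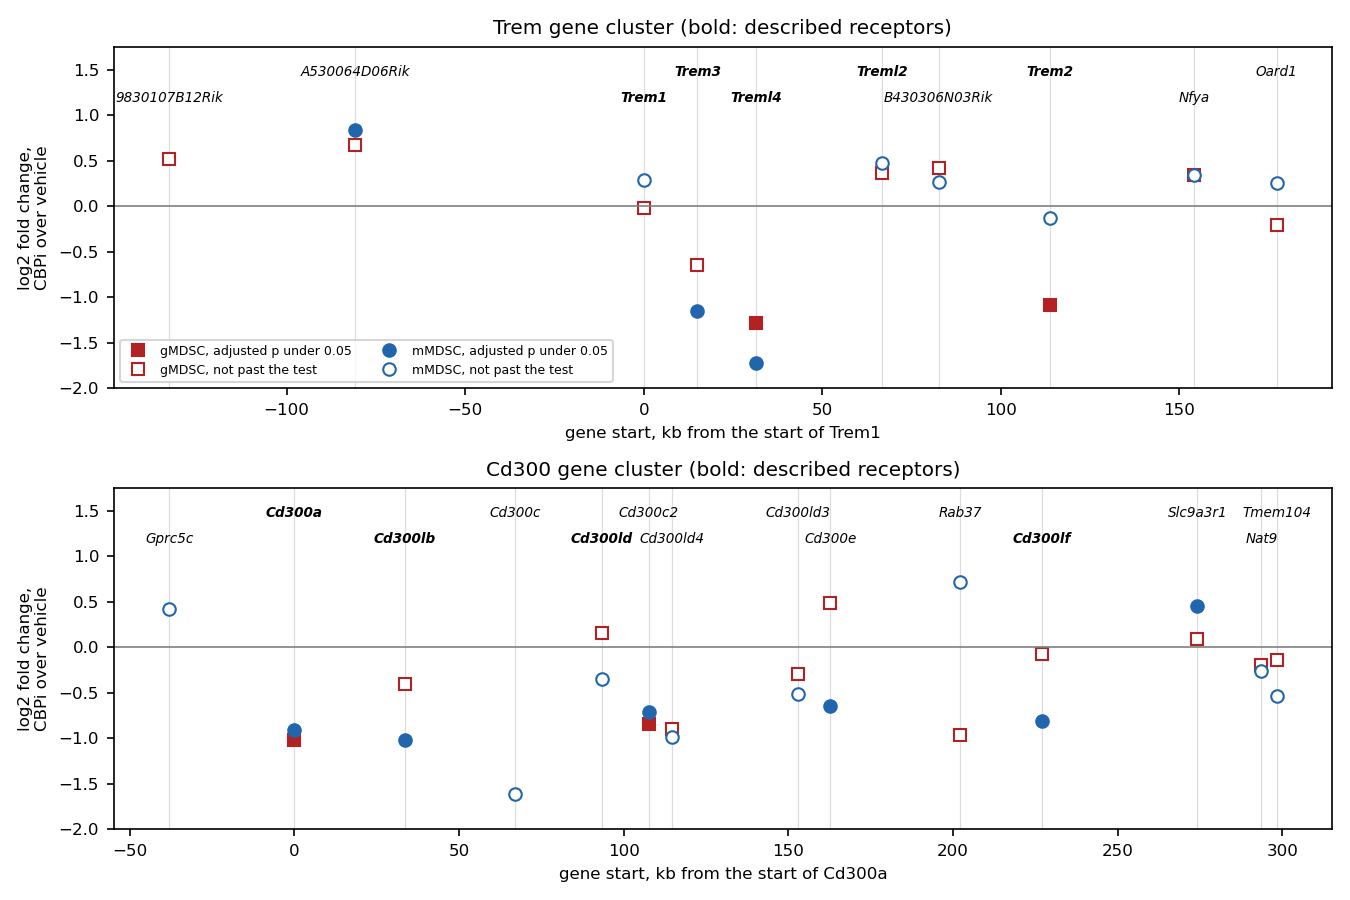
Log2 fold change of CBPi over vehicle (vertical axis) for tested genes of the Trem and Cd300 clusters and their neighbours, by the distance of the gene start from that of Trem1 or Cd300a in kb (horizontal axis). Squares are gMDSC, circles mMDSC, and filled symbols had an adjusted p under 0.05. From Trem1 to Trem2 all filled symbols lie below 0, and the filled symbol above 0 in that panel is A530064D06Rik, upstream of Trem1.

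Genes that work with these receptors were counted from lists by role, beside 9.71% of all genes called in gMDSC and 8.56% in mMDSC. Of 10 tested other receptors that can pair with DAP12, 5 were lower and 0 higher with CBPi in gMDSC and 6 lower and 0 higher in mMDSC, with medians of -0.75 and -0.57. Clec5a, a C-type lectin of myeloid cells, fell to 99.5 ± 8.05 CPM in CBPi gMDSC, against 429 ± 108 CPM in vehicle gMDSC (-2.06 ± 0.18 (SE), adjusted p = 2.23e-05). In mMDSC Clec5a was at 35.9 ± 4.22 CPM with CBPi and 91.2 ± 9.68 CPM with vehicle (-1.36 ± 0.12, adjusted p = 3.83e-05). Sirpb1a, a signal-regulatory protein, fell in both (-0.72, adjusted p = 0.0135 in gMDSC, and -0.77, adjusted p = 0.00151 in mMDSC). Pilrb1 fell in gMDSC (-1.09, adjusted p = 0.00666), and Klrk1, the gene of NKG2D, in mMDSC (-0.56, adjusted p = 0.0108). The SIRP beta and PILR beta genes are close paralogs whose reads may be shared. Of 12 other TREM and CD300 genes listed, 4 were tested in gMDSC with 1 lower, and 6 in mMDSC with 2 lower.

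Among 25 tested adaptors and activating kinases, 3 were lower and 1 higher with CBPi in gMDSC, and 6 were lower and 0 higher in mMDSC, which is 16% of the list in gMDSC and 24% in mMDSC. Lat2, an adaptor of myeloid and B cells, fell to 66.3 ± 15.8 CPM in CBPi gMDSC, against 149 ± 18.2 CPM in vehicle gMDSC (-1.13 ± 0.18 (SE), adjusted p = 0.00244). It fell to 61.7 ± 2.85 CPM in CBPi mMDSC, against 171 ± 10.3 CPM in vehicle mMDSC (-1.48 ± 0.09, adjusted p = 3.01e-06). The Src-family kinase Fgr (-1.09, adjusted p = 0.00017) fell in mMDSC. In gMDSC the exchange factor Vav1 (-0.61, adjusted p = 0.0204) and Fcer1g, the Fc receptor gamma chain (-0.81, adjusted p = 0.0384), fell. Of 12 phosphatases and inhibitory adaptors 4 were lower and 0 higher in each cell type (33.3%), and they were Ptpn6, Csk, Dok3 and Ptpn22 in both. Ptpn6, the gene of SHP-1, was at 961 ± 59.5 CPM in CBPi gMDSC against 1980 ± 223 CPM in vehicle gMDSC (-1.0 ± 0.13, adjusted p = 0.000646), and at 722 ± 57.9 CPM in CBPi mMDSC against 1240 ± 117 CPM in vehicle mMDSC (-0.78 ± 0.10, adjusted p = 0.000401).

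Ligands and sheddases were mostly past neither test. Of 12 tested, 1 was lower and 1 higher with CBPi in gMDSC, and 1 was lower and 0 higher in mMDSC. The heat-shock gene Hspa1a was at 731 ± 398 CPM in CBPi gMDSC and 44.6 ± 8.44 CPM in vehicle gMDSC (4.07 ± 0.35 (SE), adjusted p = 2.23e-05). Apoe, a lipoprotein that TREM2 binds, fell in gMDSC (-1.15 ± 0.29, adjusted p = 0.0242), and Actb, a cytoskeletal gene, in mMDSC (-0.37, adjusted p = 0.0221). Pglyrp1, whose product is a TREM1 ligand, was higher in gMDSC than in mMDSC, at 87.4 ± 34.1 against 3.50 ± 1.36 CPM under CBPi (4.69 ± 0.33, adjusted p = 2.58e-07), and at 135 ± 89.8 against 4.57 ± 2.38 CPM in vehicle mice (4.89 ± 0.49, adjusted p = 1.51e-05).

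Genes of lipid-associated macrophages, which are tied to TREM2, went both ways. Of 19 tested, 3 were lower and 1 higher with CBPi in gMDSC, and 5 were lower and 4 higher in mMDSC. Itgax (CD11c) fell in gMDSC (-0.95, adjusted p = 0.00618) and in mMDSC (-1.19, adjusted p = 0.000596), and the cathepsin gene Ctsl rose in gMDSC (0.61, adjusted p = 0.0131). Lpl, the gene of lipoprotein lipase, rose to 108 ± 16.9 CPM in CBPi mMDSC, against 36.6 ± 5.35 CPM in vehicle mMDSC (1.54 ± 0.14 (SE), adjusted p = 4.01e-05), and the tetraspanin Cd9 rose there as well (1.00 ± 0.16, adjusted p = 0.002).

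The balance of Trem1 to Trem2 per kb, a measure picked after the values were seen and given without a test, summarised the granulocytic and monocytic patterns. It was 16.5, 14.4, 5.95, 4.62 and 7.09 in CBPi gMDSC 6 to 10, and 6.48, 3.56, 2.63, 6.72 and 2.69 in vehicle gMDSC 1 to 5. It was 0.406, 0.769, 0.350, 0.723 and 0.309 in CBPi mMDSC 6 to 10, and 0.280, 0.326, 0.314, 0.439 and 0.479 in vehicle mMDSC 1 to 5. Trem1 exceeded Trem2 in all 10 gMDSC libraries and was below it in all 10 mMDSC libraries, and the 2 CBPi gMDSC libraries with the highest ratio were those with the lowest macrophage sums.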

How the data were processed

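Per the file headers, the 23090 Entrez genes of each library carry a count, an RPKM value and a width. Counts are whole numbers, not normalized, as deposited by the authors. The RPKM values were made by the authors and deposited beside them, and were used only to work out the library totals they imply, of which the gene counts made up 50.25% to 62.44%. Width is the deposited gene length in bases. GSNAP and GRCm38 are named in the submitters' processing notes, and a counting tool is not given in the sources used here. A symbol was matched to 21647 IDs and none to 1443. The members and lists, and the genes most like a member, were chosen with earlier results of these data known.

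The test was edgeR 4.0.16 under R 4.3.3 (quasi-likelihood test, TMM, filterByExpr with minimum count 10 and minimum total 15, Benjamini-Hochberg over all genes tested, adjusted p under 0.05) on the 10 libraries compared, or all 20 for the difference between responses. SE is the log2 fold change divided by the square root of F. Alternatives were DESeq2 1.42.0, limma-voom (limma 3.58.1), RLE normalization, no filter on low counts, all 20 libraries in 1 fit, the replicate number as a block, and leaving out libraries. The fit was tested on simulated data. Where genes were changed 2-fold, the share recovered was 19.4% for CBPi in gMDSC and 51.5% for CBPi in mMDSC. Between the cell types it was 15.6% in vehicle and 43.1% under CBPi. The share lay between 65.2% and 77.3% at 4-fold, and between 1.52% and 13.6% at 1.5-fold. False calls numbered 3 to 6 in a comparison. A member that did not pass may therefore still have changed. Named list genes were the 3 with the smallest p past the threshold and at least 10 CPM on average in 1 group. One such gene is not reported here. Likeness used log2 CPM with a pseudocount of 0.5. Replicates differed by more than sampling noise, with a chi-square of at least 21.6 for each degree of freedom. The labels do not say whether libraries came from separate mice, so p-values measure the spread between these samples, which may be technical. Total counts were 12.37 to 26.64 M per library. Protein sequences were not used here.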

Additional observations from a re-analysis of the deposited data

Results flagged for a closer look

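Of 40 member-by-group sets of 5 libraries, 4 held a library whose distance to its nearest neighbour was over 0.71 of the group's range, and chance gives about 1 in 20. Trem3 in CBPi gMDSC 6 was at 153 CPM, with the next library at 105 CPM. Treml2 in CBPi mMDSC 8 was at 21.0 CPM, with the next at 17.9 CPM. Cd300a in CBPi mMDSC 6 was at 121 CPM, with the next at 144 CPM. Trem2 in vehicle mMDSC 1 was at 72.4 CPM, with the next at 93.9 CPM.

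Hspa1a, Cd300e, Lpl and Cd9, from the lists, responded differently to CBPi in gMDSC than in mMDSC, by edgeR's quasi-likelihood test of the difference itself. The difference, gMDSC response minus mMDSC response on the log2 scale, was 3.96 for Hspa1a (adjusted p = 0.00026), 1.10 for Cd300e (adjusted p = 0.0437), -1.34 for Lpl (adjusted p = 0.0354) and -1.39 for Cd9 (adjusted p = 0.0437). Lpl was at 53.8 ± 13.9 CPM in CBPi gMDSC and 46.4 ± 17.1 CPM in vehicle gMDSC, and at 108 ± 16.9 CPM in CBPi mMDSC and 36.6 ± 5.35 CPM in vehicle mMDSC (SD, n = 5 each). Cd9 was at 891 ± 284 CPM in CBPi gMDSC and 1160 ± 381 CPM in vehicle gMDSC, and at 81.8 ± 17.3 CPM in CBPi mMDSC and 40.5 ± 5.81 CPM in vehicle mMDSC.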

How the results depend on the processing

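The count of all genes called moved most. In mMDSC it was 1020, with 639 in the fit of all 20 libraries and 1738 by DESeq2. In gMDSC it was 1135, with 2182 in the fit of all 20 libraries, 2056 by DESeq2 and 724 without vehicle gMDSC 3, CBPi gMDSC 6 and CBPi gMDSC 7 (chosen after seeing the data). For the difference between responses it was 92, with 302 by DESeq2. The labels do not say whether the replicate numbers pair the libraries. In their deviations from the group means, same-numbered libraries of the sorted types correlated at -0.06 to 0.236, and 3 of 10 correlated best with their own number. These correlations cannot decide whether the libraries are paired, since different sorted types of 1 mouse need not vary together. With the replicate number as a block the count was 52 for the difference, 2014 against 2514 for the cell types in vehicle and 4581 against 4666 under CBPi. Leaving out 1 library at a time gave 587 to 1394 genes and 2 to 5 members in gMDSC, 694 to 1143 genes and 4 to 5 members in mMDSC, and 34 to 111 genes for the difference. In gMDSC the count was 708 without CBPi gMDSC 6 and 587 without CBPi gMDSC 7, and for the difference it was 57 and 34 without those, 53 without CBPi mMDSC 10, 47 without vehicle gMDSC 4 and 58 without vehicle mMDSC 5. Values near 0 changed sign when a library was left out: Trem1 in gMDSC ranged from -0.15 to 0.10, Cd300ld between vehicle cell types from -0.13 to 0.04, and the Treml2 difference between responses from -0.40 to 0.04. Treml2 in gMDSC was -0.15 without the 3 libraries. The causes were not tested. The CBPi changes of Treml4 and Cd300a kept their direction and call in both sorted types under every alternative run.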
